A study of Mus musculus with 12 samples.

Results

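The genes described are 10 in number: Tmem87a, Abcb10, B3galt6, Mro, Cyp2c55, Htr1b, Rbm45, Polr3gl, Galc and Gchfr. They were selected on their measured intensities, for a large difference between wild-type 129Sv and wild-type B6 testes, and every probe set that the platform annotation gives to exactly 1 of them was used. This gave 17 probe sets for the 10 genes, out of 18193 genes with such a probe set on the array. The 12 Affymetrix arrays fell into 4 groups of 3: 129Sv testes labelled dmrt1 knockout, B6 testes labelled dmrt1 knockout, 129Sv wild-type testes and B6 wild-type testes. All were labelled as E15.5 testes, although P28 is the stage in their growth protocol, and all arrays received biotin-labelled total RNA of tissue kept in RNAlater. 129Sv and B6 are inbred mouse strains, and Dmrt1 encodes a transcription factor found in Sertoli cells and germ cells before and after birth. The knockout is described as conditional, and the sources used here name neither the Cre line, nor the cells it acts in, nor the deleted part of the gene. The labels also do not say whether each array came from a separate animal, so the spread behind each p-value is that between samples and may be technical. A number before the strain code of the titles, whose meaning is not stated, is 7 in all 129Sv knockouts and 1 of 3 129Sv wild types, 11 in the other 129Sv wild types, 10 in all B6 knockouts and 2 of 3 B6 wild types, and absent in the other. In 129Sv it thus runs partly with genotype. The first number of the titles, whose meaning is also not stated, differs between all 129Sv arrays. In B6, knockout replicate 1 shares it with wild-type replicate 1, and knockout replicate 2 with wild-type replicate 2. The main genotype test took all 12 arrays as independent.

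Animals of a fully inbred strain carry the same alleles at nearly every locus, so a sequence difference between strains near a gene can set that gene's RNA level in every animal of a strain. The 10 genes do not form a pathway. Tmem87a encodes a multi-pass membrane protein of the Golgi, and Htr1b a serotonin receptor that couples to inhibitory G proteins. Cyp2c55 is a cytochrome P450 enzyme that oxidises arachidonic acid, Galc is the lysosomal galactosylceramidase, whose loss causes Krabbe disease, and B3galt6 adds a galactose of the sugar linker that joins glycosaminoglycan chains to proteoglycans. Gchfr is a regulatory protein that inhibits the first enzyme of tetrahydrobiopterin synthesis, and Abcb10 is a transporter of the inner mitochondrial membrane needed for heme synthesis in red cell precursors. Rbm45 is an RNA-binding protein and Polr3gl a subunit of RNA polymerase III. Mro, or maestro, is known in the mouse for its higher expression in the developing male than female gonad, and so is the member with a known tie to this tissue.

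The promoter windows of 5 members are shown because they frame the results below: Tmem87a had the largest strain difference, Gchfr lies on the same chromosome as Tmem87a, Cyp2c55 was the one member that changed with genotype, and Abcb10 and Galc had the most similar profiles over the arrays. The sequences are from RefSeq for GRCm38.p6, a build made from the B6 strain, so the 129Sv letters may differ. Each runs 5′ to 3′ on the strand of the gene, from 250 bases before to 50 bases after the annotated start, and capitals mark the motifs TATAAA and GGGCGG on either strand.
Tmem87a promoter, chr2:120404067-120404366, minus strand: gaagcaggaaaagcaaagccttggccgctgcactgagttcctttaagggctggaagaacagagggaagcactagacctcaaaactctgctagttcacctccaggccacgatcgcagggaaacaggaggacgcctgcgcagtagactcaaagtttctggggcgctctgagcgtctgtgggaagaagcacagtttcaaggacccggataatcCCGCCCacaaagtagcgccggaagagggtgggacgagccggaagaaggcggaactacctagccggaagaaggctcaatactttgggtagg
Gchfr promoter, chr2:119167538-119167837, plus strand: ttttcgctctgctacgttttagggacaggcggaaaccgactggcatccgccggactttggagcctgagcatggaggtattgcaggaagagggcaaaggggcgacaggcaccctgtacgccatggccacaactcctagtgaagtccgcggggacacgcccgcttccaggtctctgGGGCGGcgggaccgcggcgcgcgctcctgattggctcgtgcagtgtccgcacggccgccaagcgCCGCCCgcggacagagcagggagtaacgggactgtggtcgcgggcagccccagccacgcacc
Cyp2c55 promoter, chr19:39006769-39007068, plus strand: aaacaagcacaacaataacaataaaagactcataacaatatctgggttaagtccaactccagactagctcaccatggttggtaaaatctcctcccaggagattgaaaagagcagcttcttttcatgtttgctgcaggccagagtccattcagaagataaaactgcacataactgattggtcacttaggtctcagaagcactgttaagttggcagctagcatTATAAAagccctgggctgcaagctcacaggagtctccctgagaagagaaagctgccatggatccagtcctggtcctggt
Abcb10 promoter, chr8:123983073-123983372, minus strand: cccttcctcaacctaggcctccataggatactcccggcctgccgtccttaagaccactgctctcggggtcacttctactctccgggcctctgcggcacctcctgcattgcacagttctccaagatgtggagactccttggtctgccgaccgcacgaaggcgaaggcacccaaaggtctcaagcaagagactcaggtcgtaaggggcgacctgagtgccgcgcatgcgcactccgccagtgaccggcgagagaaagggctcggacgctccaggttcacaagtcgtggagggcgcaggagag
Galc promoter, chr12:98259410-98259709, minus strand: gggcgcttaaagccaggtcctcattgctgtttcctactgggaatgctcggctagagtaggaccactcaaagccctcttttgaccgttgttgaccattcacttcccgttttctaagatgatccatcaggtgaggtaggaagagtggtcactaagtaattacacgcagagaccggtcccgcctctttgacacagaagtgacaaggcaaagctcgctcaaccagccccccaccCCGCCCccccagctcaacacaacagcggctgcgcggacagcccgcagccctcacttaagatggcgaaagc

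The Cyp2c55 window held no CpG dinucleotide and a GC content of 44.7%, whereas those of Tmem87a, Gchfr, Abcb10 and Galc held 15, 31, 21 and 14 CpG. Over all 32851 windows of the table the median was 7 CpG and 52.7% GC. The window of B3galt6, not printed, had the most CpG of the 9 members looked up, 48, with 72.7% GC. TATAAA was found only in the Cyp2c55 window among these 9, at position -29 from the start, and 13.6% of all windows hold it on either strand. GGGCGG was found once in the windows of Tmem87a and Galc and 2 times in that of Gchfr, and 35.7% of all windows hold it. ACATTGT, letters at the centre of DM domain binding motifs, was in none of the 9 windows, and 2.96% of all windows hold it. These matches describe letters in the B6 sequence and say nothing about binding.

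Dmrt1, the targeted gene, was lower on every array labelled knockout than on any wild-type array. Its intensity was 173, 145 and 181 in 129Sv knockout testes and 86.4, 64.0 and 72.9 in B6 knockout testes, against 1183, 924 and 1014 in 129Sv wild type and 795, 1092 and 1066 in B6 wild type. Median intensities of the arrays lay between 17.3 and 19, and the lowest and highest correlation (r, across probe sets) within a group were 0.983 and 0.998. Defining markers of the testis were present on all arrays, with Sox9 of Sertoli cells between 557 and 1072, Ddx4 of germ cells between 1700.1 and 4619 and Star of fetal Leydig cells between 2408 and 3698. Degraded RNA raises the 3′ over the 5′ Actb signal, and this ratio was highest in B6 knockout replicate 3 (6.30) and 129Sv knockout replicate 1 (5.24), and between 1.99 and 3.91 elsewhere. A low intensity can reflect less RNA or a poorer match of the probes to a strain's sequence, and these cannot be told apart here because probe sequences were not used. In whole testes, fewer cells of a type and less RNA per cell cannot be told apart either.

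Among wild types, which the choice of genes used and which are therefore given without a test, 6 genes were higher in 129Sv than in B6 (Tmem87a, Htr1b, Cyp2c55, Rbm45, Polr3gl and Gchfr) and 4 were lower (Abcb10, Galc, B3galt6 and Mro). The fitted sizes on the log2 scale ran from 7.18 for Tmem87a, rank 1 of 12727 tested genes, to 3.27 for Gchfr, rank 24. Another 14 genes had a wild-type difference at least as large as that of Gchfr, so the members are not the full set of large differences. The knockouts asked whether each difference holds in arrays whose values the rule of choice did not use. The members were, however, chosen with earlier results of these data known, so the knockouts are not a fully separate check. At the most intense probe set, each of the 10 differences kept its direction in knockouts, and the arrays of the strains did not overlap there. The shares of all probe sets that kept their direction or had no such overlap were not counted. Neither count of the members thus has a background to compare with. Of the 13 probe sets that reached an intensity of 16 (log2 of 4) on at least 3 arrays, 12 passed the test among knockouts (limma adjusted p under 0.05), 6 higher and 6 lower in 129Sv. Over all 24820 probe sets tested, 20.7% passed, 12% higher and 8.71% lower. These were not chosen for a wild-type difference, and the share passing among probe sets so chosen was not counted. Without the filter the same count of 12 passed of 17, where 10.8% of all probe sets did. 3 of the 13 reached the filter through B6 arrays alone, namely the second probe sets of Abcb10 and B3galt6 and the most intense of Galc. Tmem87a and Cyp2c55 needed 129Sv arrays to reach it. Each had 6 129Sv arrays at or above 16, against 1 B6 array for Tmem87a and 2 for Cyp2c55.

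**Figure D1:**
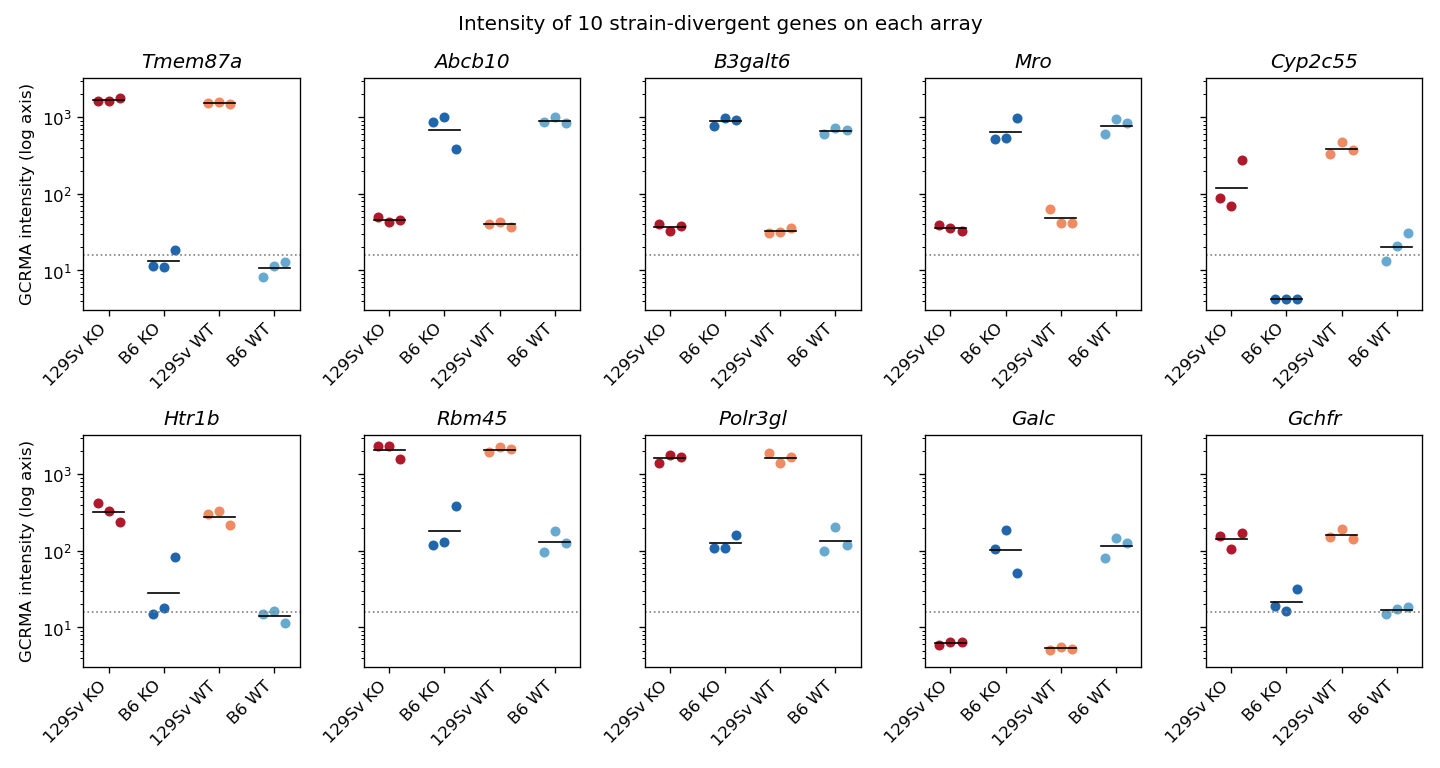
GCRMA intensity (log axis) of the most intense probe set of each of the 10 genes on the 12 arrays, as points by group, with the geometric mean of each group as a bar and the filter intensity of 16 as a dotted line. In each panel the 3 arrays of 129Sv lie apart from the 3 of B6, in knockouts as in wild types, and Cyp2c55 also lies lower in the knockouts of each strain.

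Tmem87a, the Golgi membrane protein gene, was below or near an intensity of 16 in B6 and strong in 129Sv. Its intensity was 1641, 1645 and 1779.7 in 129Sv knockouts and 11.5, 11.0 and 18.5 in B6 knockouts. The wild types read 1555, 1563 and 1505 in 129Sv and 8.12, 11.5 and 12.9 in B6. No 129Sv array read below 1505, and 1 of 6 B6 arrays, knockout replicate 3, exceeded 16. The knockout means were 1689 ± 78.9 and 13.6 ± 4.19 (SD, n = 3 each), at least 105-fold higher in 129Sv when the B6 mean is set to 16. The log2 difference, 7.00 ± 0.23 (SE, limma adjusted p = 2.70e-06), was the largest in size of all 24820 probe sets tested among knockouts.

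Htr1b, the serotonin receptor gene, was also higher in 129Sv, with more spread. Its probe set 1442077_at read 425, 333 and 239 in 129Sv knockouts and 14.9, 17.7 and 83.2 in B6 knockouts. In wild types it read 304, 337 and 216 in 129Sv and 14.9, 16.3 and 11.4 in B6. B6 knockout replicate 3 stood at several times the level of the other B6 arrays, yet below every 129Sv array. The difference among knockouts was 3.53 ± 0.58 on the log2 scale (SE, n = 3 each, limma adjusted p = 0.00398), 11.5-fold, and without B6 knockout replicate 3 it was 4.31 (adjusted p = 1.82e-06).

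Cyp2c55, the P450 gene, differed by strain and was the one member that also changed with genotype. Its intensity was 88.1, 69.2 and 281 in 129Sv knockouts and 4.26, 4.30 and 4.21 in B6 knockouts. Wild types reached 334, 469 and 378 in 129Sv and 13.2, 20.6 and 30.4 in B6. The B6 knockouts gave the lowest readings of all members at their most intense probe sets, while 2 of 3 B6 wild types exceeded 16, and 129Sv knockout replicate 3 lay well above the other 129Sv knockouts. The strain difference among knockouts was 4.81 ± 0.46 on the log2 scale (SE, n = 3 each, limma adjusted p = 0.000336), at least 7.48-fold. With values below 16 raised to 16 it was 2.90 (adjusted p = 0.0175).

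Gchfr, which restrains tetrahydrobiopterin synthesis, read 156, 107 and 169 in 129Sv knockouts and 19.2, 16.2 and 32.0 in B6 knockouts. It read 154, 195 and 142 in 129Sv wild types and 15.2, 17.2 and 18.3 in B6 wild types. The 6 B6 arrays lay between 15.2 and 32.0, and no 129Sv array read below 107. Among knockouts it was 6.58-fold higher in 129Sv (log2 difference 2.72 ± 0.31, SE, n = 3 each, limma adjusted p = 0.000754), next to 9.62-fold in wild types.

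The members that act on RNA, Rbm45 and Polr3gl, were strongly expressed in 129Sv and clearly above the filter in B6 as well. Rbm45 read 2346, 2350.3 and 1581 in 129Sv knockouts and 119, 132 and 386 in B6 knockouts, next to 1952, 2242 and 2138 in 129Sv wild types and 97.1, 182 and 126 in B6 wild types. Again B6 knockout replicate 3 was the highest of the B6 arrays, and it remained below all 129Sv arrays. The difference among knockouts was 3.50 ± 0.40 (log2, SE, n = 3 each, limma adjusted p = 0.000825), 11.3-fold, and 4.04 without that array (adjusted p = 6.90e-07).

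Polr3gl read 1422, 1807 and 1701 in 129Sv knockouts and 110.1, 110.4 and 163 in B6 knockouts. It read 1877, 1418 and 1669 in 129Sv wild types and 98.4, 206 and 119 in B6 wild types. Each 129Sv array exceeded each B6 array in both genotypes, and the 2 B6 groups overlapped. Polr3gl was 13.0-fold higher in 129Sv knockouts (log2 difference 3.70 ± 0.20, SE, n = 3 each, limma adjusted p = 2.16e-05), next to 12.3-fold in wild types.

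Abcb10, the mitochondrial transporter gene, was lower in 129Sv. At probe set 1416402_at the intensity was 49.6, 43.0 and 46.0 in 129Sv knockouts and 867, 996 and 381 in B6 knockouts. Wild types read 40.0, 43.4 and 37.4 in 129Sv and 871, 1007 and 851 in B6. The low B6 value was that of knockout replicate 3, and no B6 array came near the 129Sv range. In knockouts it was 15.0-fold lower in 129Sv (log2 difference -3.90 ± 0.33, SE, n = 3 each, limma adjusted p = 0.000197), and -4.33 without that array (adjusted p = 2.59e-07).

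B3galt6, the linker galactosyltransferase gene, read 40.4, 32.6 and 38.6 in 129Sv knockouts and 774, 993 and 911 in B6 knockouts at probe set 1435252_at. The wild types read 31.2, 31.7 and 36.3 in 129Sv and 605, 722 and 693 in B6. All 6 129Sv arrays stayed between 31.2 and 40.4, above the filter but far below B6. It was 24.0-fold lower in 129Sv knockouts (log2 difference -4.58 ± 0.19, SE, n = 3 each, limma adjusted p = 5.87e-06).

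Galc, the galactosylceramidase gene, was below an intensity of 16 on every 129Sv array at its most intense probe set, 1452907_at. It read 5.93, 6.43 and 6.42 in 129Sv knockouts and 106, 188 and 51.9 in B6 knockouts, next to 5.02, 5.64 and 5.31 in 129Sv wild types and 81.8, 148 and 127 in B6 wild types. B6 knockout replicate 3 had the lowest of the B6 values. Galc was at least 6.33-fold lower in 129Sv knockouts (log2 difference -4.02 ± 0.41, SE, n = 3 each, limma adjusted p = 0.000457), and without that array the log2 difference was -4.50 (adjusted p = 1.82e-06).

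Mro, the gonadal gene, read 39.7, 35.7 and 32.6 in 129Sv knockouts and 524, 538 and 971 in B6 knockouts. It read 63.7, 41.7 and 41.6 in 129Sv wild types and 611, 938 and 831 in B6 wild types. The 129Sv arrays did not exceed 63.7 and the B6 arrays did not fall below 524. Mro was 18.1-fold lower in 129Sv knockouts (log2 difference -4.18 ± 0.26, SE, n = 3 each, limma adjusted p = 4.29e-05), next to 16.3-fold lower in wild types.

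**Figure D2:**
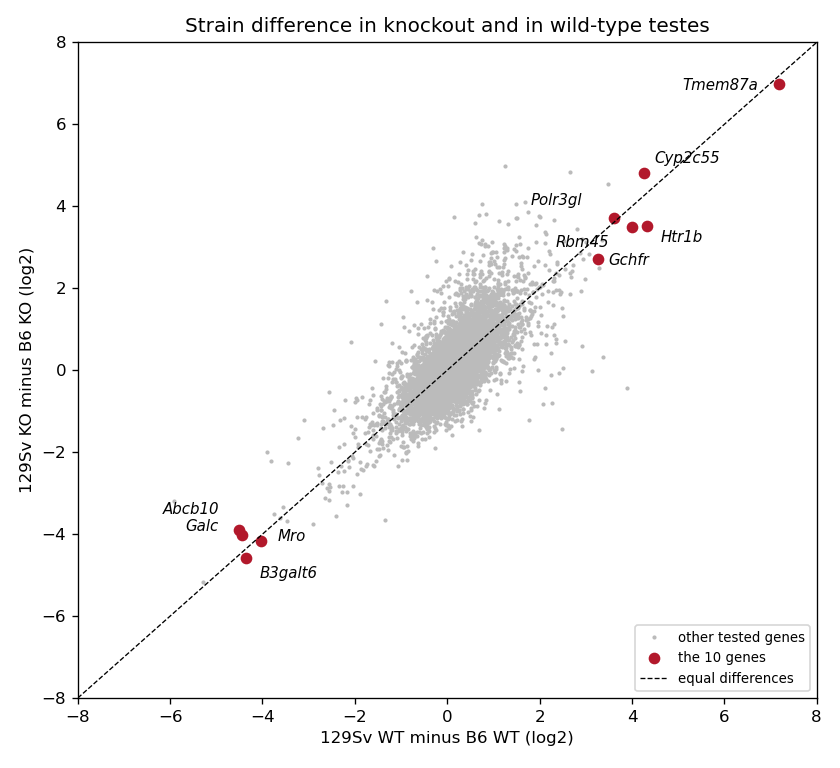
Strain difference (129Sv minus B6, log2) in knockouts on the vertical axis against that in wild types on the horizontal axis, for 12727 tested genes at 1 probe set each, with the 10 members in red and the line of equal differences dashed. The members lie at the ends of the wild-type axis by choice and stay near the line, from Tmem87a at 7.00 in knockouts and 7.18 in wild types to Abcb10 at -3.90 in knockouts and -4.50 in wild types.

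The sizes in the 2 genotypes can be set side by side. For the 6 genes whose group means were all above 16, the knockout difference was smaller in size than that of wild types for Abcb10, Rbm45 and Gchfr and larger for Mro, B3galt6 and Polr3gl. The difference of the differences, knockout minus wild type, was 0.59 on the log2 scale for Abcb10, -0.55 for Gchfr, -0.51 for Rbm45, -0.24 for B3galt6, -0.15 for Mro and 0.09 for Polr3gl. For the other genes at least 1 group mean lay below 16, and the fitted values there are no measure of size. With every value below 16 raised to 16, as done for all genes after the data were seen, Cyp2c55 had 2.90 in knockouts and 4.18 in wild types, Htr1b 3.50 in knockouts and 4.12 in wild types, Galc -2.66 in knockouts and -2.85 in wild types, and Tmem87a 6.65 in knockouts and 6.59 in wild types. These comparisons contain the wild-type values that chose the genes, so they were not tested. Ranked by size on that scale among all 24820 probe sets in knockouts, Tmem87a was 1, B3galt6 8, Mro 14, Abcb10 23, Polr3gl 32, Htr1b 48, Rbm45 49, Cyp2c55 111, Gchfr 141 and Galc 154. The ranks of Tmem87a, Cyp2c55 and Galc are of lower bounds. So is that of Htr1b, where B6 knockout replicate 1 (14.9) was raised to 16.

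B6 knockout replicate 3 lay toward 129Sv for several genes. With 0 set at the B6 wild-type mean and 1 at the 129Sv wild-type mean of each gene, this array had a median place of 0.185 over the 10 genes, and 5 of 10 were above 0.25, namely Htr1b, Rbm45, Abcb10, Gchfr and Galc. In B6 knockout replicates 1 and 2 the medians were 0.0148 and -0.0241, and none was above 0.25. Over 322 other probe sets with a wild-type difference of at least 2 (log2), the median place of B6 knockout replicate 3 was 0.00863, with quartiles of -0.220 and 0.266. The 129Sv knockouts had medians of 0.974, 1.01 and 0.952 over the members and 0.969, 0.896 and 0.951 over the 322 other probe sets. Those other probe sets had medians of -0.0397 and -0.0401 in B6 knockout replicates 1 and 2. By these medians, they kept their places in knockouts about as the members did. B6 knockout replicate 3 also had the highest Actb ratio. Its mean log2 of 7 germ cell markers was 8.81, against 9.27 and 9.11 in B6 knockout replicates 1 and 2. For 5 macrophage and leukocyte markers it was 6.08, against 5.28 and 5.55, and for 3 red blood cell markers 8.29, against 7.59 and 9.25. The part of the ratio or of cell content in the values of this array was not tested. Without this array, all 12 probe sets still passed, and the 10 highest had sizes between 3.00 (Gchfr) and 7.24 (Tmem87a).

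**Figure D3:**
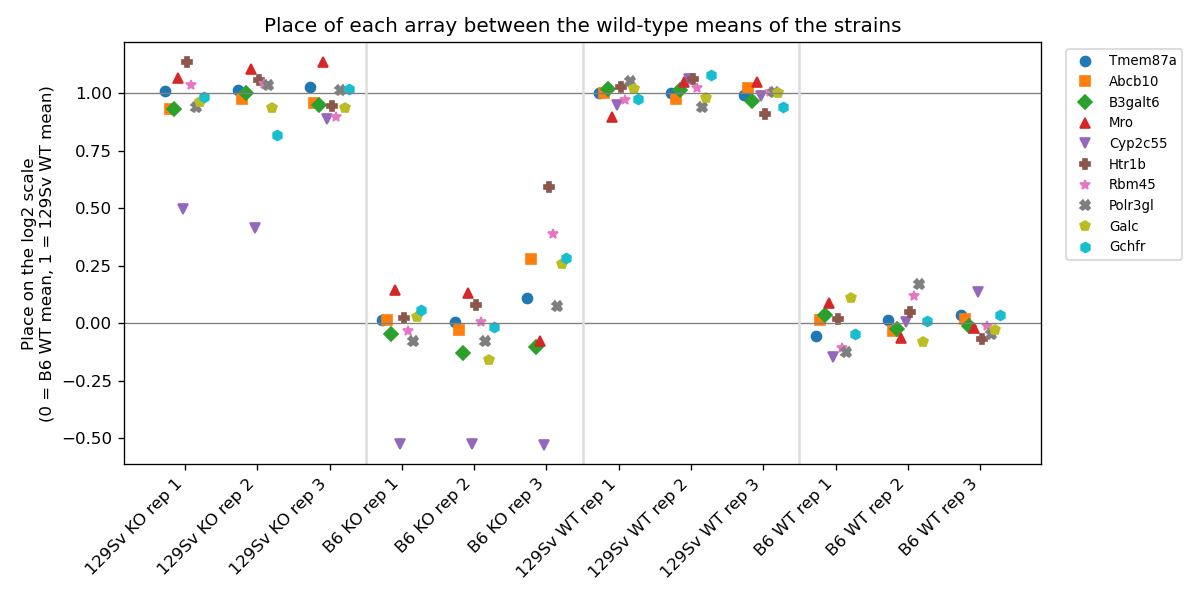
Place of each of the 12 arrays between the B6 wild-type mean (0) and the 129Sv wild-type mean (1) on the log2 scale, 1 symbol per gene. The 129Sv arrays sit around 1 and the B6 arrays around 0, apart from Cyp2c55, which is lower in the knockouts of both strains, and B6 knockout replicate 3, where Htr1b stands at 0.594.

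Of the 10 genes, 4 had several probe sets, which gave different fitted strain differences. For Abcb10, the second probe set 1416403_at read 7.81, 7.45 and 7.17 in 129Sv knockouts and 24.7, 14.8 and 19.4 in B6 knockouts, a log2 difference of -1.36 ± 0.26 (SE, n = 3 each, limma adjusted p = 0.00794). The third, 1454265_a_at, was at or below 4.55 on every array and was not tested under the filter. The difference at 1416402_at minus that at 1416403_at was -2.54 ± 0.41 on the log2 scale (SE, limma adjusted p = 0.0126). With values below 16 raised to 16 the second probe set missed the threshold (-0.30, adjusted p = 0.234), and the test of the pair missed it without any 1 of the 129Sv knockouts (adjusted p = 0.0537, 0.0583 and 0.0639). Among the 9173 such pairs of probe sets on the array, 7.94% passed this test.

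For B3galt6, the second probe set 1440340_at read 12.8, 11.7 and 10.6 in 129Sv knockouts and 36.7, 43.5 and 71.2 in B6 knockouts, a log2 difference of -2.05 ± 0.29 (SE, n = 3 each, limma adjusted p = 0.00202). Its 129Sv arrays were all below 16 and its B6 arrays all above. The difference at 1435252_at minus that at 1440340_at was -2.53 ± 0.27 (SE, limma adjusted p = 0.00190), while 1421155_at was at or below 12.2 on every array.

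For Galc, the second probe set 1420547_at read 17.1, 18.7 and 18.5 in 129Sv knockouts and 26.9, 26.0 and 29.4 in B6 knockouts. Here the strains also did not overlap, but the log2 difference of -0.60 ± 0.21 missed the threshold (SE, n = 3 each, limma adjusted p = 0.0795). In the fit of all 12 arrays, whose spread comes partly from the wild types that chose the genes, it passed (adjusted p = 0.0274). The difference at 1452907_at minus that at 1420547_at was -3.42 ± 0.44 (SE, limma adjusted p = 0.00444). In wild types 1420547_at read 18.2, 15.2 and 17.0 in 129Sv and 21.7, 28.8 and 23.4 in B6. So Galc was listed near the filter in 129Sv by one probe set and below it by the other. The third, 1449900_at, and the second of Htr1b, 1422288_at, stayed at or below 3.70 and 8.50 on every array.

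Where a second probe set was tested its direction was that of the first in all 3 genes. For Galc it was above 16 in both strains and its size was smaller. For Abcb10 and B3galt6 the second probe set was below 16 in 129Sv, so its fold is only bounded, at least 1.20-fold and 3.03-fold, and the pair differences rest on values below the filter. Probe sets of a gene carry different probes, and their positions in the transcripts were not used here. The sizes given for Abcb10, B3galt6, Galc and Htr1b are thus those of the most intense probe set, and the 6 other genes have no second one to compare.

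**Figure D4:**
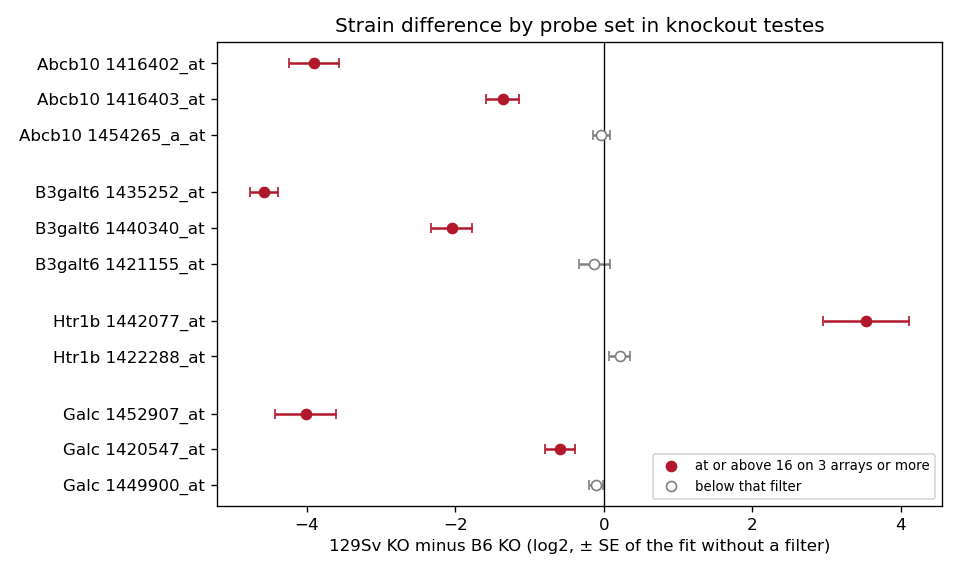
Strain difference among knockouts (129Sv minus B6, fitted log2, with SE) for each probe set of the 4 genes with more than 1, filled where the filter was passed and open where not. For Abcb10, B3galt6 and Galc the most intense probe set lies at -3.90 to -4.58 and the others between it and 0.

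Cyp2c55 was the only member that passed the test of genotype averaged over both strains. It was lower in knockouts, with a log2 change of -1.98 ± 0.30 (SE, 12 arrays, limma adjusted p = 0.000895). Its mean intensity was 146 ± 117 in 129Sv knockouts and 394 ± 69.0 in 129Sv wild types, and 4.26 ± 0.0451 in B6 knockouts and 21.4 ± 8.66 in B6 wild types (SD, n = 3 each). The knockout and wild-type arrays overlapped in neither strain. The fitted change in 129Sv was -1.70, while in B6 the knockouts were below 16, so that only a bound can be given, at least 1.26-fold lower. With values below 16 raised to 16 the averaged change was -1.07 (adjusted p = 0.0399). Only 1 129Sv wild type, replicate 2 (intensity 469), has the title number of the 129Sv knockouts, and the part of that number in the change was not tested. Each within-strain change contains the wild-type values that chose the gene, so they were not tested alone. Of all probe sets, 9.76% passed this test, 3.93% higher and 5.83% lower in knockouts, against 1 of the 13 probe sets of the members. With arrays weighted by their quality, 3 passed, the others being B3galt6 (adjusted p = 0.0344) and Mro (adjusted p = 0.0222).

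The other 12 probe sets did not pass the genotype test. B3galt6 had 0.28 ± 0.11 (SE, limma adjusted p = 0.145) and, at its second probe set, 0.41 ± 0.18 (adjusted p = 0.176), and both were under 0.05 before adjustment. Mro had -0.34 ± 0.18 (adjusted p = 0.286) and Htr1b 0.60 ± 0.35 (adjusted p = 0.333). For Tmem87a, Rbm45, Abcb10, Polr3gl, Galc and Gchfr the fitted changes lay between -0.10 and 0.22, with standard errors of 0.15 to 0.26. A p that misses the threshold does not show that the level is the same.

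Markers of several cell types moved with genotype or strain in these arrays. Of 7 tested germ cell markers, 4 were lower in knockouts (Dnd1, Tdrd1, Mael and Mov10l1), and the summed level of the list was 15954 to 20482 in 129Sv knockouts and 18668 to 20205 in 129Sv wild types, and 6604 to 10664 in B6 knockouts and 12978 to 16171 in B6 wild types. All 7 were higher in 129Sv than in B6 knockouts, and Tdrd1 averaged below 16 in B6 knockouts (9.78 ± 1.62, SD, n = 3). Over all 12727 tested genes, at 1 probe set each, 21.7% passed among knockouts, 13.8% higher and 7.87% lower in 129Sv. Of 10 Sertoli markers, 2 were lower in 129Sv knockouts than in B6 knockouts (Amh and Inha) and 1, Cst9, was lower in knockouts than in wild types. The summed level of that list was 12174 to 14934 in 129Sv knockouts and 15261 to 17079 in 129Sv wild types, and 16051 to 18292 in B6 knockouts and 16960 to 18532 in B6 wild types. Of the other lists, 3 of 4 fetal Leydig cell markers, 1 of 5 each for interstitial cells, endothelial cells and macrophages, and 1 of 3 for red blood cells were lower in 129Sv knockouts, while, of 4 granulosa cell markers, Rspo1 was higher and Wnt4 lower, and the 3 mesonephros markers did not pass. By genotype, 2 of those 3 mesonephros markers passed, Lhx1 higher (2.90, limma adjusted p = 0.000383) and Pax8 lower (-1.01, adjusted p = 0.0189) in knockouts, and Rspo1 was higher (0.95, adjusted p = 0.00330). The summed level of the mesonephros list was 989 to 1551 in 129Sv knockouts and 779 to 1032 in 129Sv wild types, and 1541 to 1722 in B6 knockouts and 1109.6 to 1495 in B6 wild types. Their part in the values of Cyp2c55 and the other members was not tested.

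**Figure D5:**
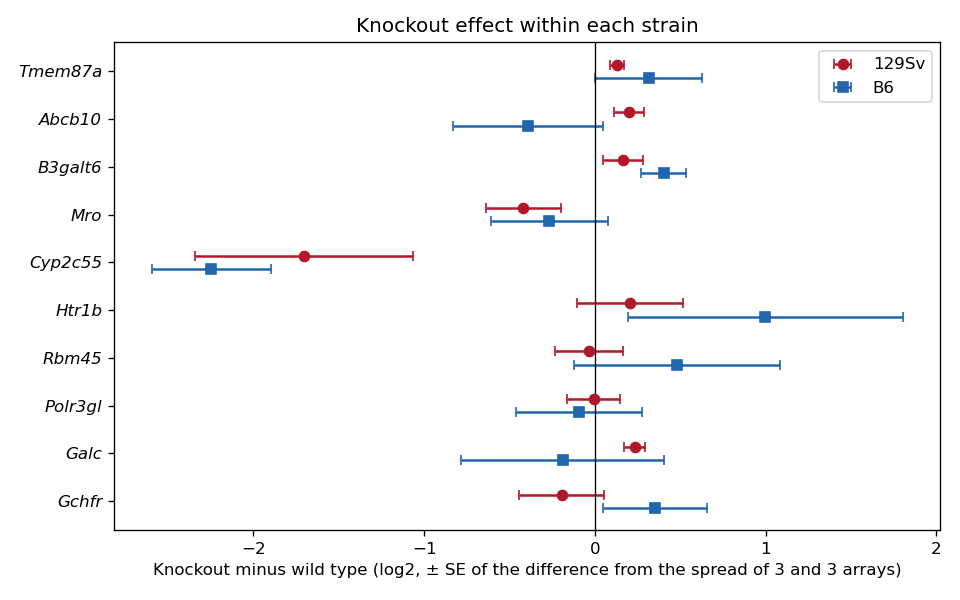
Knockout minus wild type (log2) within 129Sv (red circles) and within B6 (blue squares) for each gene, with SE of the difference. Cyp2c55 lies at -1.70 in 129Sv and -2.25 in B6, where its knockouts were below 16, and the other genes lie between -0.42 and 1.00, the upper end being Htr1b in B6, where its wild types averaged below 16.

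Genes with a known tie to a member were looked up to see whether strain differences extended to their pathways. For the 11 other tested subunits of RNA polymerase III, Polr3a (0.77 on the log2 scale, limma adjusted p = 0.0154) and Polr3b (0.89, adjusted p = 0.0204), the core subunits, were higher in 129Sv knockouts, Polr3f (-1.33, adjusted p = 0.0291) was lower and 8 did not pass. Polr3g, the paralog of Polr3gl, had 0.46 (adjusted p = 0.130). The median of the 11 was 0.31, against 0.03 over all tested genes, and 3 of 11 passed against 21.7% of all.

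Of 12 other tested genes of heme synthesis and mitochondrial transport, 1 was higher in 129Sv knockouts and 2 were lower. Abcb6, a transporter of the same family as Abcb10, was higher (1.06, limma adjusted p = 0.0122). Ppox, which makes protoporphyrin, and Alas2, the first enzyme of the path in red cells, were lower (-0.81, adjusted p = 0.0156, and -1.08, adjusted p = 0.0297). The list's median was -0.03. Alas2 is also in the list of red blood cell markers, whose summed level was 604 to 1182 in 129Sv knockouts and 890 to 3816 in B6 knockouts. For 10 other genes of glycosaminoglycan linker and chain synthesis, Extl3 alone was lower (-0.42, adjusted p = 0.0490) and 9 did not pass, so the 24.0-fold difference of B3galt6 had no counterpart of its size in that list.

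Lysosomal enzymes and cofactors around Galc gave 1 higher, 3 lower and 7 not passing of 11, with a median of -0.29. Gla, alpha-galactosidase, was higher by 0.77 (limma adjusted p = 0.0211). Asah1, acid ceramidase, Gm2a, an activator of ganglioside breakdown, and Scarb2, a lysosomal membrane protein, were lower, with -0.42, -0.44 and -0.72 (adjusted p = 0.0154, 0.0398 and 0.00675). The 6 tested genes of tetrahydrobiopterin metabolism beside Gchfr did not pass, and Gch1, the enzyme that Gchfr inhibits, had 0.37 (adjusted p = 0.421).

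Beside Htr1b, 3 of the 15 other serotonin genes on the array reached the filter. Slc6a4, the serotonin transporter, and Tph1, which makes serotonin in the periphery, were higher in 129Sv knockouts (0.95, limma adjusted p = 0.0351, and 1.19, adjusted p = 0.0233). Tph1 was also lower in knockouts than in wild types averaged over strains (-1.16, adjusted p = 0.00356). It averaged 11.9 in B6 knockouts, so both of its differences rest partly on values below 16. Tmem87b, the paralog of Tmem87a, was higher by 0.43 (adjusted p = 0.0373), and the other 2 tested genes of that family and both tested relatives of Mro did not pass. None of the 10 other Cyp2c genes on the array reached the filter, so in these testes Cyp2c55 was the only gene of its subfamily on the array that did.

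Genes next to the members on their chromosomes were counted to see whether the differences extended along the genome. Of 60 tested neighbours, 3 on each side of each member, 17 passed among knockouts, 13 higher and 4 lower in 129Sv, which is 28.3% against 21.7% of all genes. Only 4 differed 2-fold or more: Spint1, a protease inhibitor gene near Gchfr (2.75, limma adjusted p = 0.000365), Mei4, a meiotic recombination gene (1.94, adjusted p = 0.00329), and Myo6, a myosin gene (1.39, adjusted p = 0.00104), on the 2 sides of Htr1b, and Ints11, an Integrator subunit gene near B3galt6 (1.01, adjusted p = 0.00413). Among knockouts, Spint1 was higher in 129Sv as was Gchfr, and Mei4 and Myo6 as was Htr1b, whereas Ints11 was higher and B3galt6 lower. Mei4 averaged 15.8 in B6 knockouts, and 10.6 and 7.54 in 129Sv and B6 wild types. It thus reached the filter through knockouts alone, and its difference rests partly on values below 16. By genotype averaged over strains, Mei4 was higher in knockouts (1.76, limma adjusted p = 6.44e-05), Spint1 was lower (-1.65, adjusted p = 0.000147), and Myo6 and Ints11 did not pass.

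The other neighbours that passed differed less. Near Abcb10, Ccsap, Nup133 and Urb2 were all higher in 129Sv (0.98, 0.75 and 0.75), opposite to Abcb10. Near Tmem87a, Pla2g4e passed (0.85), but both knockout groups averaged below 16 and it reached the filter through 129Sv wild types. Higher too were, near Mro, Me2 (0.60), and near Cyp2c55, Hells and Pdlim1 (0.49 and 0.68). Rpusd2 near Gchfr (0.78) and Spata7 near Galc (0.74) were higher, while Sel1l near Galc (-0.48), C1qtnf12 near B3galt6 (-0.75), and Osbpl6 and Fkbp7 near Rbm45 (-0.76 and -0.64) were lower. None of the 6 around Polr3gl passed. The members lay on chromosomes 2 (Rbm45, Gchfr and Tmem87a), 3, 4, 8, 9, 12, 18 and 19, and Cyp2c55 shares chromosome 19 with Dmrt1.

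The profiles most like those of the members were found by Pearson correlation of log2 intensity over the 12 arrays. All genes share these arrays and their groups, so the values describe likeness only. For Tmem87a these were Trim12a (r = -0.998) and Stk35 (0.995). Trim12a averaged 4.01 ± 0.0987 in 129Sv knockouts and 147 ± 30.7 in B6 knockouts (SD, n = 3 each). Abcb10 was nearest to Galc (0.994) and Tmem87a (-0.992), Rbm45 to Abcb10 (-0.987) and Htr1b (0.986), Htr1b to Gm38983 and Rbm45 (both 0.986), and Galc to Abcb10 and Gm15663 (0.985). B3galt6 was nearest to D2hgdh and Trim12a (both 0.992), Polr3gl to Mocs1 (-0.996) and Tmem87a (0.991), Mro to Abhd1 (-0.986) and Ang (0.986), and Gchfr to Hddc3 (0.989) and Gm15663 (-0.989). Cyp2c55 was nearest to Mmel1 (0.996) and Gnat2 (0.988). Both also were lower in knockouts over both strains (limma adjusted p = 0.0244 and 0.0245), and D2hgdh was higher (adjusted p = 0.0451). As these genes were picked for likeness on the same 12 arrays, their genotype results are no separate evidence for those of the members. Mmel1 was below 16 on average in both B6 groups, and Gnat2 in B6 knockouts (15.1).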

How the data were processed

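Total RNA of 12 samples was hybridised to Affymetrix arrays, 3 per group. The deposited values are linear intensities per probe set that the authors summarised with GCRMA, per the submitters' processing notes. GCRMA removes background estimated from probe base content, then equalises distributions over arrays and combines the probes of a set, and its version is not given in the sources. It pulls dim probe sets toward a common low level, which compresses differences there. Log2 was taken here from the deposited intensity, and the number of arrays limits the precision.

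Groups and replicate numbers came from the sample descriptions. Names of probe sets came from the platform annotation: of 45101, 34958 had 1 gene, 932 several and 9211 none. Symbols were checked through RefSeq (GRCm38.p6) by Entrez identifier, 34754 matched, and the rest kept the platform symbol. Apart from 64 control probe sets, those with a log2 of at least 4 (intensity 16) on at least 3 arrays were tested, 24820 in all. A group mean below 16 was set to 16 for a fold given as "at least", and no fold is given where both were below it. Log2 differences beside such folds are the fitted ones.

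Tests were two-sided and run in R 4.3.3 by limma 3.58.1, with lmFit followed by eBayes and its variance trend, with Benjamini-Hochberg adjustment over all tested features and a threshold of 0.05. The strain difference among knockouts used the 6 knockout arrays (4 residual and 5.09 prior degrees of freedom). The genotype effect averaged over strains used all 12 (8 and 5.28) and is orthogonal to the wild-type strain difference. Pairs of probe sets of a gene, the one of highest mean minus each other, were tested among knockouts. The wild-type difference, the knockout effect within a strain and the difference of differences had no test, since the choice of genes used the wild types. Gene lists (9 pathway lists and 9 lists of cell type markers) took 1 probe set per gene, that of highest mean. Named genes were the members, up to 3 tested neighbours on each side that passed, list members and the 2 most correlated genes. The members and lists were chosen with earlier results of these data known.

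On simulated data with 200 changed features, the fit among knockouts (24820 features) found 2%, 40%, 84% and 100% of changes of 0.5, 1, 2 and 4 on the log2 scale, with 4.24% false calls. The genotype fit (24820) found 36%, 72%, 100% and 100%, with 1.91%, and the pair fit (9173) 0%, 36%, 72% and 94%, with 4.72%. The simulated noise was normal and independent between features, and 200 changed features are far fewer than the 5137 called among knockouts. These rates may thus differ in the data. No arrays were identical. Alternatives were other filters, quantile normalisation, median centring, a floor at 4, no trend, array weights, the Actb ratio as a covariate, a 2-fold threshold, all 12 arrays, replicate or shared title numbers as blocks, and each array left out. The last number of the sample titles runs through B6 knockouts, B6 wild types and 129Sv in turn. If it marks an order of processing, neither strain nor genotype within B6 can be told apart from it.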

Additional observations from a re-analysis of the deposited data

How the results depend on the processing

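The strain difference among knockouts kept its direction and passed at the most intense probe set of all 10 genes under every alternative run, with adjusted p up to 0.0241 (Htr1b without 129Sv knockout replicate 2), and the probe sets called numbered 10 under the stricter filter, which tests fewer, and 12 or 13 otherwise. The Cyp2c55 genotype effect had adjusted p between 2.93e-05 and 0.0399. Galc 1420547_at passed among knockouts with a floor at 4, no trend, array weights, the Actb covariate or all 12 arrays. Over all probe sets, the 5137 that passed among knockouts became 10644 with array weights, 8017 with the Actb covariate and 2666 at 2-fold, and 2192 to 7216 with 1 array left out, where 129Sv knockout replicates 1, 2 and 3 and B6 knockout replicate 2 each moved the count by over 1.5 times (2960, 3207, 2192 and 2898). The 2422 for genotype became 5564 with array weights and 690 at 2-fold, and 1592 (without B6 wild-type replicate 3) to 2741 with 1 array left out. Member probe sets called for genotype became 3 with array weights. The 728 pairs became 1304 with no filter, 462 under the stricter filter and 332 under the replicate block, and 203 to 1376 with 1 array left out, each of the 6 moving it by over 1.5 times. Arrays of the same replicate number did not deviate together (r from -0.511 to 0.137), so replicate numbers were not taken as pairs. Among these, only B6 replicates 1 and 2 share a first title number between knockout and wild type (r = 0.108 and -0.241). They are too few to decide whether that number marks pairs. The replicate block left 12 member probe sets called among knockouts and 1 for genotype (4184 and 1972 of all). Genotype effects that did not pass changed sign as follows. Abcb10 had 0.17 with array weights, 0.11 with the Actb covariate, -0.23 to 0.12 with 1 array left out and 0.0911 without the 2 arrays of highest Actb ratio, an alternative chosen after seeing the data. Under the same 4, Rbm45 had -0.0119, -0.0919, -0.0471 to 0.378 and -0.0943, and Gchfr -0.0111, -0.138, -0.0646 to 0.181 and -0.100. Galc had -0.0939 with a floor at 4 and -0.20 to 0.26 with 1 array left out, and Polr3gl -0.16 to 0.10. The cause of these changes was not tested. Intensities below 16 limit differences to lower bounds for Tmem87a in B6, Cyp2c55 in B6 knockouts, Htr1b in B6 wild types, and Galc and the second probe sets of Abcb10 and B3galt6 in 129Sv.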
